A study of Homo sapiens with 16 samples.

Results

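NF-kB signalling is represented here by 10 genes, followed over the treatments of a glioblastoma cell line: the adaptor or kinase genes RIPK4 and CARD10, the inhibitor and feedback genes BCL3, TNFAIP3 and NFKBIA, and the 5 subunit genes NFKB1, NFKB2, REL, RELA and RELB. They are 10 of the 14040 genes that the arrays named with a single symbol, each was measured by a single entry of the expression table, and all 10 entered every test. RIPK4 and CARD10 were chosen by their low level in the SR1 group of these same arrays. Their values in the comparisons with the SR1 group are therefore given as a description without a p-value. The other 8 genes were added as the best known parts of the same pathway, with earlier results of the arrays known.

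The cells were U-87MG, an established human glioblastoma line, and total RNA was measured on 16 single-colour arrays. They received 25 µM indole-3-pyruvate (I3P) together with 1 µM SR1, an antagonist of the aryl hydrocarbon receptor (AHR), or 25 µM I3P alone, 1 µM SR1 alone, or DMSO, the carrier, at 0.1%. Each group had 4 arrays, numbered as biological replicates in the labels. Tryptophan is the parent amino acid of I3P, AHR is a transcription factor activated by ligands, and the groups with SR1 ask how far a response to I3P is seen when an antagonist is present. All groups came from a single line, and the length of treatment is not given in the sources used here.

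NF-kB is a family of dimeric transcription factors built from the subunits RELA, REL and RELB and the processed products of NFKB1 and NFKB2. In resting cells the dimers are held in the cytoplasm by inhibitory IkB proteins. Receptor signals reach the IkB kinase complex through adaptors and kinases, the IkB protein is degraded, and the dimers enter the nucleus, where they switch on inflammatory genes together with their own inhibitors. In glioblastoma the pathway is known for its activity in cells of mesenchymal character. AHR is known to interact with RELA and RELB in other cell types, so the subunit genes and the adaptors were examined side by side.

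Promoter windows reaching from 250 bases before to 50 bases after a transcription start were taken from RefSeq (GRCh38.p14) for 8 of the 10 genes, 12 windows in all. RIPK4 and RELB are named only. The window of CARD10 is printed as that of a gene chosen for its SR1 level and that of BCL3 as the gene with the next highest share of spread by treatment. Those of TNFAIP3, NFKBIA and NFKB1 (the first of its 2) are printed as the genes with the highest share by replicate number. Each runs 5′ to 3′ on the strand of its gene. In the CARD10 window, at chr22:37519366-37519665 on the minus strand, capitals mark the core that AHR binds, GCGTG, searched on both strands. In the windows of BCL3 (chr19:44748458-44748757, plus strand), TNFAIP3 (chr6:137867009-137867308, plus strand), NFKBIA (chr14:35404700-35404999, minus strand) and NFKB1 (chr4:102501109-102501408, plus strand), capitals mark matches to the kappaB consensus on either strand.
CARD10: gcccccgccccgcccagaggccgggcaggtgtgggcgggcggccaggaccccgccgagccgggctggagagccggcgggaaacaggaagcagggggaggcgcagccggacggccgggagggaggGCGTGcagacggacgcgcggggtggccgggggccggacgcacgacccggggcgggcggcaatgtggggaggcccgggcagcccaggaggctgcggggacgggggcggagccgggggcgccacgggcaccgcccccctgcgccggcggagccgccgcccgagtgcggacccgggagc
BCL3: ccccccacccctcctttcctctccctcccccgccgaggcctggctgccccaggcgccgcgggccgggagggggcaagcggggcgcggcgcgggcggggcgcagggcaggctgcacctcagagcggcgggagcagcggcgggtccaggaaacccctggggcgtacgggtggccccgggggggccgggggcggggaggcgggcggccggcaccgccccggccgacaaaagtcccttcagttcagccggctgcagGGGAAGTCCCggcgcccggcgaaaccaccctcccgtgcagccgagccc
TNFAIP3: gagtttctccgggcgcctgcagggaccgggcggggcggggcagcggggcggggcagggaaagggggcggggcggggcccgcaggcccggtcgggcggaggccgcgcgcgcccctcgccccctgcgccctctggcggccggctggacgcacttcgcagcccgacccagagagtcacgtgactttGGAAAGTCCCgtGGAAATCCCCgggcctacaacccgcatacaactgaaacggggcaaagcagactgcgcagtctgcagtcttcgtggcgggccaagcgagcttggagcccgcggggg
NFKBIA: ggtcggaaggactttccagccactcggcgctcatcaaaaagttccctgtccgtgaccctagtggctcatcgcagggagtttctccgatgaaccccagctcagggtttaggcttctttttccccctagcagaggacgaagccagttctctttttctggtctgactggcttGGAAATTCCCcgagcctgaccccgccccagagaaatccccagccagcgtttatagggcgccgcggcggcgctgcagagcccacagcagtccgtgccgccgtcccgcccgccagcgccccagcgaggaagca
NFKB1: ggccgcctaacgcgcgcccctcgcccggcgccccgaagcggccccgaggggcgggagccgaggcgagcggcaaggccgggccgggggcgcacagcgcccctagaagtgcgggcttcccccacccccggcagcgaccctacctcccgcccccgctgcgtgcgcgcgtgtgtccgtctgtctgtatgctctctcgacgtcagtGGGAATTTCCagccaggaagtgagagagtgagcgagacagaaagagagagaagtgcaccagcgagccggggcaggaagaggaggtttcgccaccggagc
The CARD10 window held 1 AHR core, which began 126 bases before the start, and no kappaB match. The BCL3 window held 1 kappaB match and no AHR core. TNFAIP3 held 2 kappaB matches, NFKBIA held 1, and neither held an AHR core. The printed NFKB1 window held 1 kappaB match and 2 AHR cores, and its other window held 1 AHR core. Among the subunit genes, kappaB matches were found in windows of NFKB1, NFKB2 and REL, and AHR cores in windows of NFKB1, NFKB2, REL and RELA. Of 35116 RefSeq windows of the same length, 36.5% held at least 1 AHR core and 5.9% at least 1 kappaB match. A match is a run of letters in this window and not a measured binding site.

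RIPK4 encodes a kinase with ankyrin repeats that can activate NF-kB when overexpressed and is known from epidermal differentiation. It was low only in the 4 arrays treated with SR1 alone. RIPK4 stood at 7.78, 7.80, 7.61 and 7.63 log2 units in replicates 1 to 4 of I3P+SR1, and at 7.61, 8.0, 7.82 and 8.11 in I3P. In SR1 the 4 arrays gave 6.45, 6.78, 6.35 and 6.75, against 8.03, 7.80, 7.62 and 7.28 in DMSO. Every SR1 array lay below every array of the other 3 groups, which overlapped each other. The order of the group means was I3P (7.89 ± 0.22), I3P+SR1 (7.70 ± 0.10), DMSO (7.68 ± 0.32) and SR1 (6.58 ± 0.21; SD, n = 4 each), and of the neighbours in it DMSO and SR1 alone differed beyond their spread.

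The log2 difference of RIPK4 between SR1 and DMSO was -1.10 (SE 0.16), a level 2.14-fold lower with SR1. Between I3P+SR1 and SR1 it was 1.12 (SE 0.16), a level 2.17-fold higher with both compounds. These 2 comparisons share the SR1 arrays. All 4 same-numbered pairs of arrays lay on that side in each, with differences from -1.58 to -0.53 and from 0.88 to 1.32. The mean of RIPK4 in the SR1 group stood at percentile 1.08 of all genes. No detection calls were used, so how far that level stands above background was not assessed, and in bulk RNA fewer cells that express a gene and less RNA per cell cannot be told apart.

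RIPK4 in I3P differed from DMSO by 0.21 (95% interval -0.13 to 0.54, limma adjusted p = 0.999), with 3 of 4 pairs higher. It was -0.11 within replicates 1 and 2 and 0.52 within replicates 3 and 4, which have different prefixes in their titles. It was 0.07 without DMSO replicate 4, 0.13 without I3P replicate 4 and 0.32 without DMSO replicate 1. Between I3P+SR1 and I3P the difference was -0.18 (95% interval -0.52 to 0.15, adjusted p = 0.999), and between I3P+SR1 and DMSO it was 0.02 (95% interval -0.31 to 0.36, adjusted p = 1.00). The response of RIPK4 to I3P with SR1, minus that without it, was 0.91 log2 units. The SR1 mean for which the gene was chosen enters this value, and its sign is not read as a result.

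CARD10, also called CARMA3, encodes a scaffold that joins receptor signals to BCL10 and MALT1 outside blood cells and so activates the IkB kinase complex. Its pattern over the groups was that of RIPK4. CARD10 gave 8.01, 8.17, 8.42 and 7.92 in I3P+SR1 and 8.45, 8.38, 8.63 and 8.31 in I3P. It gave 7.36, 7.38, 7.16 and 7.20 in SR1, against 8.05, 8.42, 8.35 and 7.76 in DMSO. The SR1 arrays again lay below all the others, while the other 3 groups overlapped. Group means ran I3P (8.44 ± 0.14), DMSO (8.14 ± 0.30), I3P+SR1 (8.13 ± 0.22) and SR1 (7.28 ± 0.11; SD, n = 4 each), and of the neighbours I3P+SR1 and SR1 alone differed beyond their spread.

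CARD10 was lower in SR1 than in DMSO by a log2 difference of -0.87 (SE 0.15), or 1.82-fold, and higher in I3P+SR1 than in SR1 by 0.86 (SE 0.15), or 1.81-fold. Its difference between I3P and DMSO was 0.30 (95% interval -0.01 to 0.62, adjusted p = 0.999), and between I3P+SR1 and I3P it was -0.31 (95% interval -0.63 to 0.0019, adjusted p = 0.999). The lower level in I3P+SR1 held in 4 of 4 pairs. Between I3P+SR1 and DMSO it was -0.01 (95% interval -0.33 to 0.30, adjusted p = 1.00). The response of CARD10 to I3P with SR1, minus that without it, was 0.56, a value that the choice of the gene affects in the same way.

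Of the 10 genes, RIPK4 and CARD10 passed the limma test, at an adjusted p under 0.05 over 14040 genes, in both comparisons with the SR1 group. In SR1 against DMSO, 23 genes or 0.164% of those tested passed, and in I3P+SR1 against SR1, 16 genes or 0.114% passed. These calls repeat the choice of the genes, so nothing is read from the shares. The call of CARD10 depended on single arrays: it was lost in SR1 against DMSO without any of SR1 replicates 1, 3 and 4 or DMSO replicates 1, 2 and 3, where its log2 difference lay between -0.90 and -0.78. In I3P+SR1 against SR1 it was lost without any of I3P+SR1 replicates 1, 2 and 3 or any SR1 array, with differences between 0.76 and 0.89. RIPK4 kept its call when each array was left out in turn. These counts all use the values by which both genes were chosen.

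**Figure D1:**
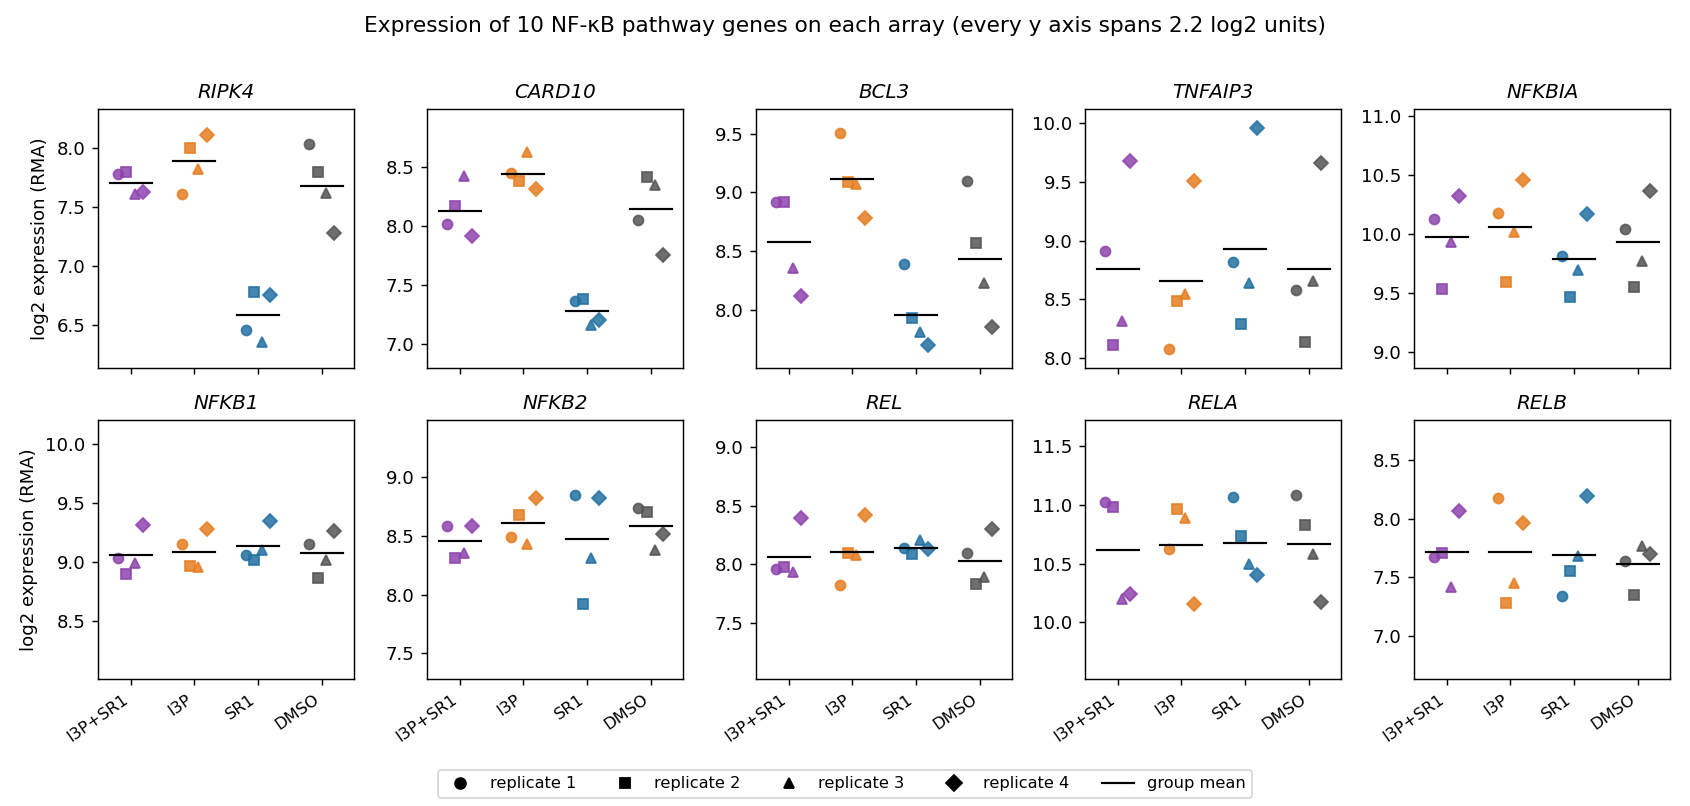
Log2 expression of the 10 genes on each array, by treatment group (horizontal axis), with a marker shape for each replicate number and a line at each group mean; every vertical axis spans the same number of log2 units. RIPK4 and CARD10 are low in the 4 SR1 arrays, while TNFAIP3, NFKBIA and NFKB1 are highest in replicate 4 of every group.

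The array titles carry a prefix, SLI for replicates 1 and 2 and SMI for replicates 3 and 4, which the labels do not explain. After the prefix stands a code that the arrays of a replicate number share over all groups, also without explanation. Within SLI the difference of RIPK4 between SR1 and DMSO was -1.30 and within SMI it was -0.90. For CARD10 these were -0.86 and -0.87. Between I3P+SR1 and SR1, RIPK4 differed by 1.17 within SLI and 1.07 within SMI, and CARD10 by 0.72 and 0.99. With 2 arrays a group, neither gene passed the test within a prefix. Both genes were chosen on arrays of both prefixes, so these values are a description.

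Over the 16 arrays, the 5 genes whose levels followed RIPK4 most closely were PLA2G4A (Pearson r = 0.922), AHRR (0.921), ZIC2 (0.918), EREG (0.917) and CYP1B1 (0.914). For CARD10 they were AGPAT9 (0.928), EREG (0.922), PITPNC1 (0.918), CYP1B1 (0.912) and FAM20C (0.910). CYP1B1, a cytochrome P450 gene, and AHRR, the AHR repressor gene, are standard AHR targets. The points share 4 SR1 arrays that lie apart from the other 12, and r measures mainly that step. RIPK4 and CARD10 correlated with each other at r = 0.880 over all 16 arrays and at 0.179 after the group means were taken out. The r with CYP1B1 was 0.592 for BCL3 and 0.333 for NFKBIA, and it lay between -0.13 and 0.14 for the other 6 genes.

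**Figure D2:**
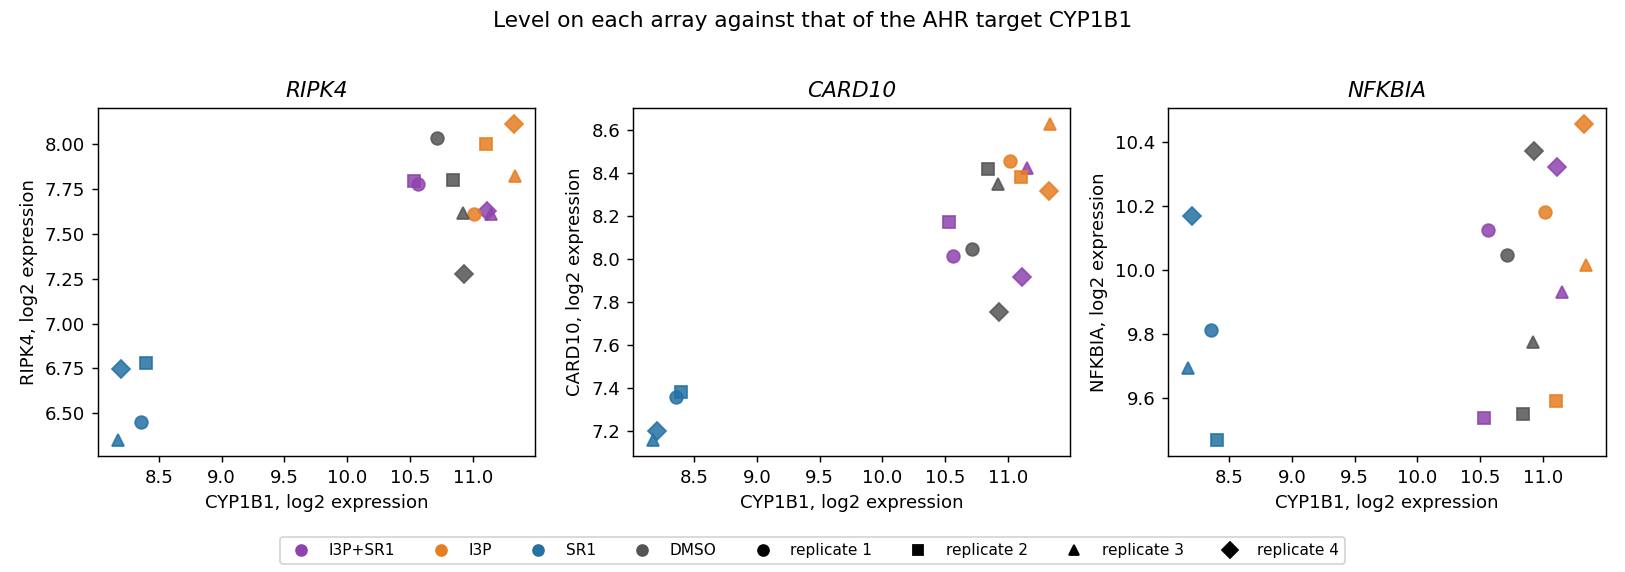
Log2 level of RIPK4, CARD10 and NFKBIA (vertical axes) against that of CYP1B1 (horizontal axis) on each of the 16 arrays, with a colour for each group and a marker shape for each replicate number. The 4 SR1 arrays stand apart at the lower left for RIPK4 (r = 0.914) and CARD10 (r = 0.912), whereas NFKBIA (r = 0.333) overlaps between the SR1 arrays (9.47 to 10.17) and the other 12 (9.54 to 10.46).

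Standard AHR targets were read on the same arrays as a check of the treatments. CYP1B1 fell by 2.57 in SR1 against DMSO (adjusted p = 8.5e-08) and rose by 2.56 in I3P+SR1 against SR1 (adjusted p = 9.1e-08). AHRR fell by 1.44 and rose by 1.37 in these comparisons (adjusted p = 0.0019 and 0.0022), and TIPARP, an AHR-induced ADP-ribosyltransferase gene, fell by 1.34 and rose by 1.41 (adjusted p = 0.017 and 0.013). CYP1A1, the other listed target, did not pass, with values of -1.92 and 1.47 (adjusted p = 0.909 and 1.00). With the replicate number as a block CYP1A1 fell in SR1 against DMSO (adjusted p = 0.047) and did not pass in I3P+SR1 against SR1 (adjusted p = 0.15). CYP1A1 was among the dimmest genes, with a mean of 6.06 at percentile 0.15 of all genes and arrays from 3.97 to 7.99. Its level above background was not assessed. None of the 4 targets passed in I3P against DMSO, where their median difference was 0.25, or in I3P+SR1 against DMSO, where it was -0.04. CYP1B1 stood at 10.84 ± 0.34 in I3P+SR1 and 10.85 ± 0.10 in DMSO (SD, n = 4 each).

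BCL3 encodes an atypical IkB protein that binds NF-kB dimers in the nucleus and can act as a coactivator. It gave 8.92, 8.92, 8.36 and 8.12 in I3P+SR1 and 9.51, 9.09, 9.07 and 8.78 in I3P. It gave 8.39, 7.93, 7.82 and 7.71 in SR1, against 9.10, 8.57, 8.23 and 7.85 in DMSO. Replicates 1 to 4 differed within each group, and every pair of groups overlapped except I3P with SR1. The order of the means was I3P (9.11 ± 0.30), I3P+SR1 (8.58 ± 0.40), DMSO (8.44 ± 0.53) and SR1 (7.96 ± 0.30; SD, n = 4 each), and no neighbours in it differed beyond their spread.

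No comparison of BCL3 passed in the fit without a block. The difference was -0.48 in SR1 against DMSO (95% interval -1.01 to 0.06, adjusted p = 1.00) and 0.62 in I3P+SR1 against SR1 (95% interval 0.08 to 1.15, adjusted p = 1.00). It was 0.68 in I3P against DMSO (95% interval 0.14 to 1.21, adjusted p = 0.999) and -0.54 in I3P+SR1 against I3P (95% interval -1.07 to -0.00047, adjusted p = 0.999). All 4 same-numbered pairs lay on the same side in each of these 4 comparisons. Between I3P+SR1 and DMSO the difference was 0.14 (95% interval -0.39 to 0.68, adjusted p = 1.00), with 3 of 4 pairs higher.

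With the replicate number as a block, BCL3 rose in I3P+SR1 against SR1 (0.62, SE 0.12, adjusted p = 0.048). In SR1 against DMSO the blocked adjusted p was 0.17. The blocked fit gave 0.68 in I3P against DMSO (SE 0.12, adjusted p = 0.459) and -0.54 in I3P+SR1 against I3P (SE 0.12, adjusted p = 0.573). These are of a size with the difference that passed. Their unadjusted p in the blocked limma fit were 6.5e-05 and 5.1e-04, against 1.5e-04 for the difference that passed. The adjusted p differ because each comparison was corrected over its own genes. By the check over all genes, the numbers were not taken as pairing the arrays in the comparisons with I3P alone. BCL3 itself was highest in replicate 1 in every group, I3P included. I3P replicate 1 stood apart from the other arrays, with correlations of 0.877 to 0.910 to them, against 0.921 to 0.979 among the other 15. Without it the difference of BCL3 between I3P and DMSO was 0.54 in place of 0.68. The response of BCL3 to I3P with SR1, minus that without it, was -0.06 (95% interval -0.82 to 0.70, adjusted p = 1.00).

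TNFAIP3 encodes A20, a ubiquitin-editing enzyme induced by NF-kB that shuts the pathway down. Its level followed the replicate number and not the treatment. TNFAIP3 gave 8.91, 8.11, 8.32 and 9.68 in I3P+SR1 and 8.08, 8.49, 8.54 and 9.50 in I3P. It gave 8.82, 8.29, 8.64 and 9.95 in SR1, against 8.58, 8.14, 8.65 and 9.66 in DMSO. The 4 arrays of replicate 4 lay between 9.50 and 9.95 and the other 12 between 8.08 and 8.91, a mean difference of 1.23 log2 units.

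NFKBIA encodes IkB-alpha, the classical cytoplasmic inhibitor and an early NF-kB target. NFKBIA gave 10.13, 9.54, 9.93 and 10.32 in I3P+SR1 and 10.18, 9.59, 10.02 and 10.46 in I3P. It gave 9.81, 9.47, 9.70 and 10.17 in SR1, against 10.05, 9.55, 9.78 and 10.37 in DMSO. In every group replicate 4 was the highest and replicate 2 the lowest, and all groups overlapped.

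The treatments moved neither inhibitor past the threshold. TNFAIP3 differed by 0.17 in SR1 against DMSO (95% interval -0.71 to 1.05) and by -0.17 in I3P+SR1 against SR1 (95% interval -1.05 to 0.71), with adjusted p = 1.00 for both. NFKBIA differed by -0.15 (95% interval -0.62 to 0.32) and 0.19 (95% interval -0.27 to 0.66), also with adjusted p = 1.00. The small differences of NFKBIA held in 4 of 4 same-numbered pairs in both, and likewise in I3P against DMSO (0.12) and I3P+SR1 against I3P (-0.08). With the replicate block the adjusted p of NFKBIA was 0.873 in SR1 against DMSO and 0.547 in I3P+SR1 against SR1.

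The subunit genes showed no treatment difference that passed. RELA encodes the main activating subunit p65, and it was spread over 10.16 to 11.08 on all 16 arrays. NFKB1, the precursor of p50, lay between 8.86 and 9.35, and NFKB2, the precursor of p52, between 7.92 and 8.84. REL lay between 7.83 and 8.42, and RELB, the partner of p52 in the alternative pathway, between 7.28 and 8.19. In all 5 genes every pair of groups overlapped in the 5 comparisons between treatments.

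Among the 5 subunit genes the log2 differences ran from -0.11 to 0.11 in SR1 against DMSO and from -0.08 to 0.02 in I3P+SR1 against SR1. They ran from -0.0086 to 0.10 in I3P against DMSO, from -0.15 to -0.00096 in I3P+SR1 against I3P and from -0.13 to 0.10 in I3P+SR1 against DMSO. The widest 95% intervals reached from -0.51 to 0.53 in SR1 against DMSO and from -0.58 to 0.47 in I3P+SR1 against SR1, so a difference of the size seen in RIPK4 lay outside them for every subunit. The smallest adjusted p of the 5 genes was 0.999 or more in all 6 comparisons, the interaction included.

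**Figure D3:**
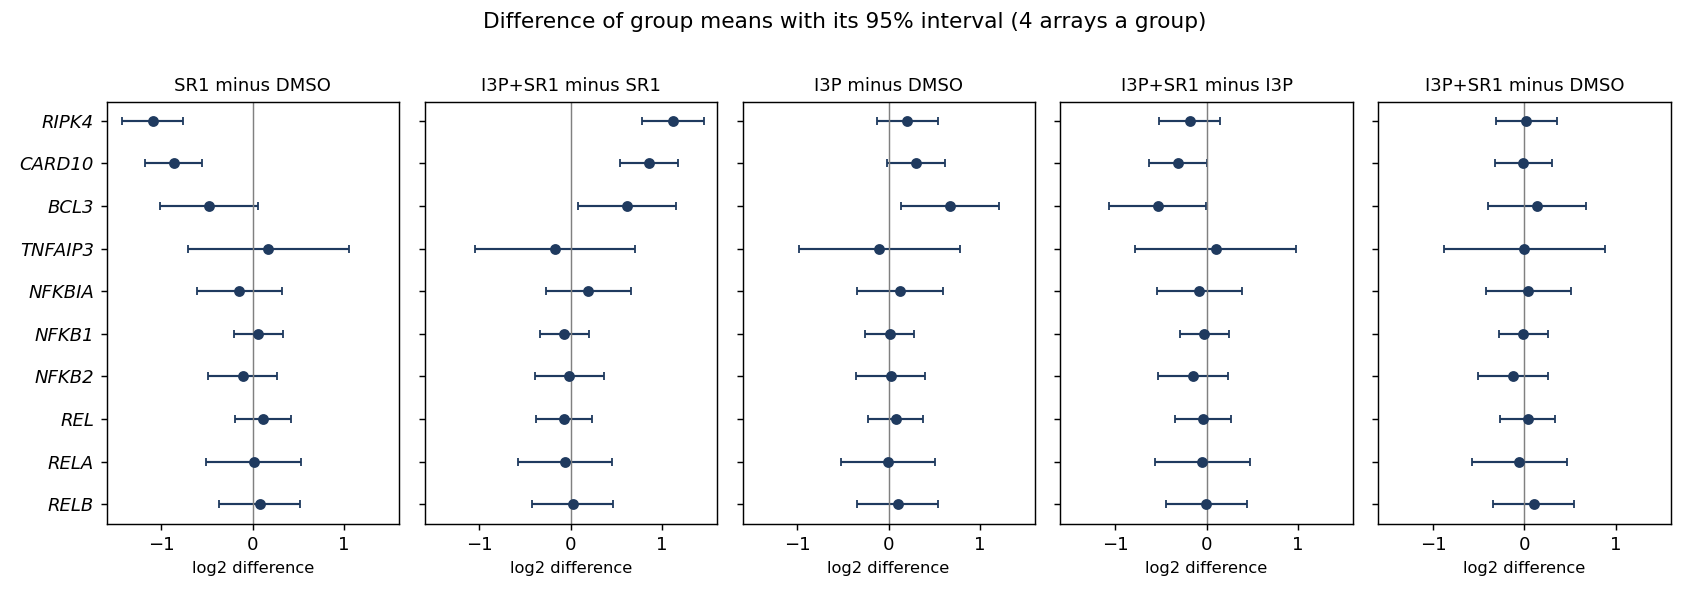
Log2 difference of group means (points) with its 95% interval (bars) for each of the 10 genes in the 5 comparisons between treatments, 4 arrays a group. RIPK4 and CARD10, which were chosen for it, lie away from 0 in the 2 comparisons with SR1, the intervals of BCL3 lie to one side of 0 in 3 comparisons, and those of the other 7 genes include 0 throughout.

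In I3P against DMSO, I3P+SR1 against I3P and I3P+SR1 against DMSO, limma called 0 of the 10 genes, and 0 or 0% of all 14040. At an unadjusted p under 0.05 there were 395, 466 and 194 genes in these 3 comparisons, among them 1, 1 and 0 of the 10. The interaction called 1 gene or 0.00712% of those tested, and 0 of the 10. At an unadjusted p under 0.05 the interaction held 283 genes, and 2 of the 10, which were RIPK4 and CARD10 and so repeat the choice. The groups of RIPK4 and CARD10 did not overlap in SR1 against DMSO and in I3P+SR1 against SR1, as was the case for 2.45% and 2.91% of all genes, and the other 8 genes overlapped in every comparison. The median log2 difference of the 10 genes was -0.05 in SR1 against DMSO, against 0.0025 over all genes, and 0.0035 in I3P+SR1 against SR1, against -0.0092 over all genes.

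The sum of squares of each gene over the 16 arrays was split into a share for the treatment group, a share for the replicate number and a remainder. For RIPK4 the group held 87.3% and the number 2.51%, and for CARD10 they held 85.5% and 7.79%. The low SR1 level by which both genes were chosen enters their group share, so these shares repeat the choice. BCL3 lay between, with 59.2% for the group and 35.7% for the number. For the 2 NF-kB-induced inhibitors the number held the larger share, 87.6% of TNFAIP3 and 87.3% of NFKBIA, and the group held 2.80% and 10.5%.

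Among the subunits the replicate number held 87.7% of NFKB1, 73.3% of RELA, 55.7% of REL, 45.4% of RELB and 37.2% of NFKB2. The group share of these 5 lay between 0.546% and 7.56%, below the median of 14.2% over all genes. The share of the number was above that of the group in 7 of the 10 genes, and in 71.4% of all genes, so this count is not particular to NF-kB. A share of the number above 87% was found in 320 genes or 2.28%, and TNFAIP3, NFKBIA and NFKB1 were 3 of them. That cut lies just below the shares of these 3 genes, the lowest being 87.3% for NFKBIA, so nothing is read from the percentage.

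**Figure D4:**
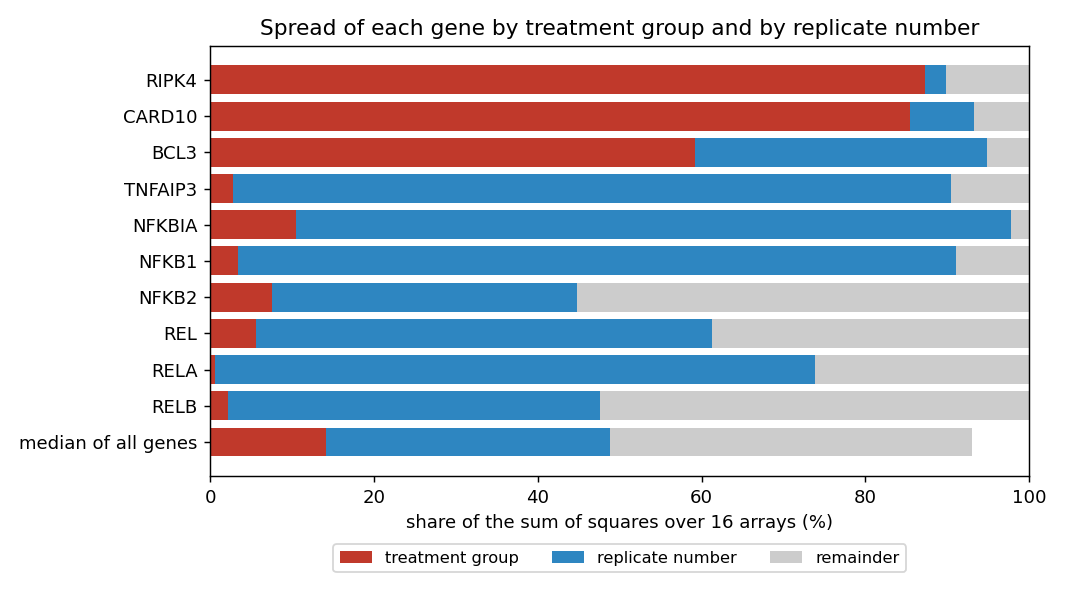
Share of the sum of squares over 16 arrays (horizontal axis, percent) held by the treatment group, the replicate number and the remainder for each of the 10 genes, with the median of each share over 14040 genes in the last bar, whose parts are medians and need not add to 100. The group fills most of the bar of RIPK4 (87.3%) and CARD10 (85.5%), which were chosen by their SR1 level. The replicate number fills most of the bar of TNFAIP3 (87.6%), NFKBIA (87.3%) and NFKB1 (87.7%).

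NFKB1 was measured at 9.26 to 9.35 on the 4 arrays of replicate 4 and at 8.86 to 9.15 on the other 12. TNFAIP3, NFKBIA and NFKB1 were each highest in replicate 4 in all 4 groups, a property of 1065 genes or 7.59% of those on the arrays. After the group means were taken out, NFKB1 correlated with TNFAIP3 at r = 0.857 and with NFKBIA at 0.911 over the 16 arrays. In the same way, CARD10 correlated negatively with NFKB1 (r = -0.728), TNFAIP3 (-0.683) and NFKBIA (-0.617). RELA did so too, at -0.642 with NFKB1, and it correlated with BCL3 at 0.848. BCL3 also ran the other way, with means of 8.98, 8.63, 8.37 and 8.12 over the arrays of replicates 1, 2, 3 and 4. RELA averaged 10.39 in SMI arrays and 10.91 in SLI arrays.

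Known NF-kB target genes were also split by replicate number; the 4 named next were chosen after their values were seen. The number held 90.2% of the chemokine gene IL8, 90.7% of the cytokine gene IL6, 91.7% of the chemokine gene CXCL3 and 93.1% of SOD2, which encodes mitochondrial superoxide dismutase. IL8 averaged 11.64 on the 4 arrays of replicate 4, which was 1.59 above the mean of the other 12. The other 12 ran from 8.96 to 11.77 and so overlapped the replicate 4 arrays (11.50 to 11.83). Over the 25 measured target genes the median share was 63.4% for the number and 19.8% for the group, against medians of 34.6% and 14.2% over all genes. The targets were not alone in this: the median share of the number was 66.9% over the 6 measured markers of the line. It was 60.4% over 11 inhibitor and deubiquitinase genes of the same pathway. In all other lists it was lower, from 6.02% over the AHR targets to 46.4% over the receptor adaptors and ubiquitin ligases. What differed between the replicates was not tested.

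Other genes of the pathway were listed by role, and 85 of 100 were measured, in 8 lists. By limma 0 rose and 0 fell in all 6 comparisons. At an unadjusted p under 0.05 there were 5 of the 85 in SR1 against DMSO (5.88%, against 2.93% of all genes) and 6 in I3P+SR1 against SR1 (7.06%, against 3.70% of all genes). In the remaining 4 comparisons there were between 1 and 4. Their shares were 2.35% in I3P against DMSO (2.81% of all genes) and 4.71% in I3P+SR1 against I3P (3.32% of all genes). They were 1.18% in I3P+SR1 against DMSO (1.38% of all genes) and 1.18% in the interaction (2.02% of all genes). The median log2 difference of the 85 was -0.02 in SR1 against DMSO and 0.05 in I3P+SR1 against SR1.

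Around the IkB kinase complex, the kinase gene MAP3K8 differed by -0.41 in SR1 against DMSO and by 0.43 in I3P+SR1 against SR1. TBK1, an IkB kinase relative, differed by -0.16 and 0.14. Among the partners of CARD10, BCL10 differed by 0.16 and 0.03, MALT1 by -0.20 and 0.11, and the protein kinase C genes PRKCA by -0.32 and 0.36 and PRKCE by 0.20 and -0.21. The relatives of RIPK4 that were measured were RIPK2, which differed by 0.09 and -0.08, and RIPK1, which differed by -0.02 and -0.03. None of these genes passed (adjusted p of 1.00 for each).

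Of the other IkB genes, NFKBIB differed by 0.13 in SR1 against DMSO and -0.07 in I3P+SR1 against SR1, and NFKBIE by 0.16 and -0.24. The ubiquitin ligase gene BIRC2 differed by 0.32 and -0.22 and the adaptor gene TRAF1 by 0.31 and -0.29. Among inhibitors, TNIP2, which binds A20, differed by 0.19 and -0.24, and OTULIN, a deubiquitinase gene listed on the platform as FAM105B, by 0.13 and -0.21. Of the receptors, the tumour necrosis factor receptor gene TNFRSF1B differed by -0.45 and 0.54 and TLR3 by 0.40 and -0.44, and none of these genes passed.

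Among the 25 target genes, 17 lay lower in SR1 than in DMSO and 18 lay higher in I3P+SR1 than in SR1, and the medians were -0.08 and 0.12. Of all genes, 50.8% and 47.1% were positive in these comparisons, which share the SR1 arrays. In I3P against DMSO 18 of the 25 lay higher, with a median of 0.10, while 45.6% of all genes were positive, with a median of -0.02. The replicate number held a median of 63.4% of the spread of these targets, so their 25 directions are not independent. IER3, an early response gene, gave 10.94, 10.89, 10.89 and 11.24 in I3P+SR1, values from 10.96 to 11.60 in I3P, and 10.16, 10.19, 10.08 and 10.49 in SR1, against 11.16, 10.84, 10.77 and 11.10 in DMSO. The SR1 arrays lay below all others. Its log2 difference was -0.74 in SR1 against DMSO (adjusted p = 0.125) and 0.76 in I3P+SR1 against SR1 (adjusted p = 0.101), the smallest adjusted p of the 85 genes in each. The interleukin gene IL1B differed by -1.70 and 1.88 (adjusted p = 1.00 for both).

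With the replicate number as a block, IER3 fell in SR1 against DMSO (adjusted p = 0.0064) and rose in I3P+SR1 against SR1 (adjusted p = 0.0065), and so did IL1B (adjusted p = 5.8e-04 and 2.4e-04). IL1A, the related interleukin gene, rose in the second comparison (0.80, adjusted p = 0.039) and differed by -0.67 in the first (adjusted p = 0.099). No other gene of the 85 passed with the block in either comparison.

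**Figure D5:**
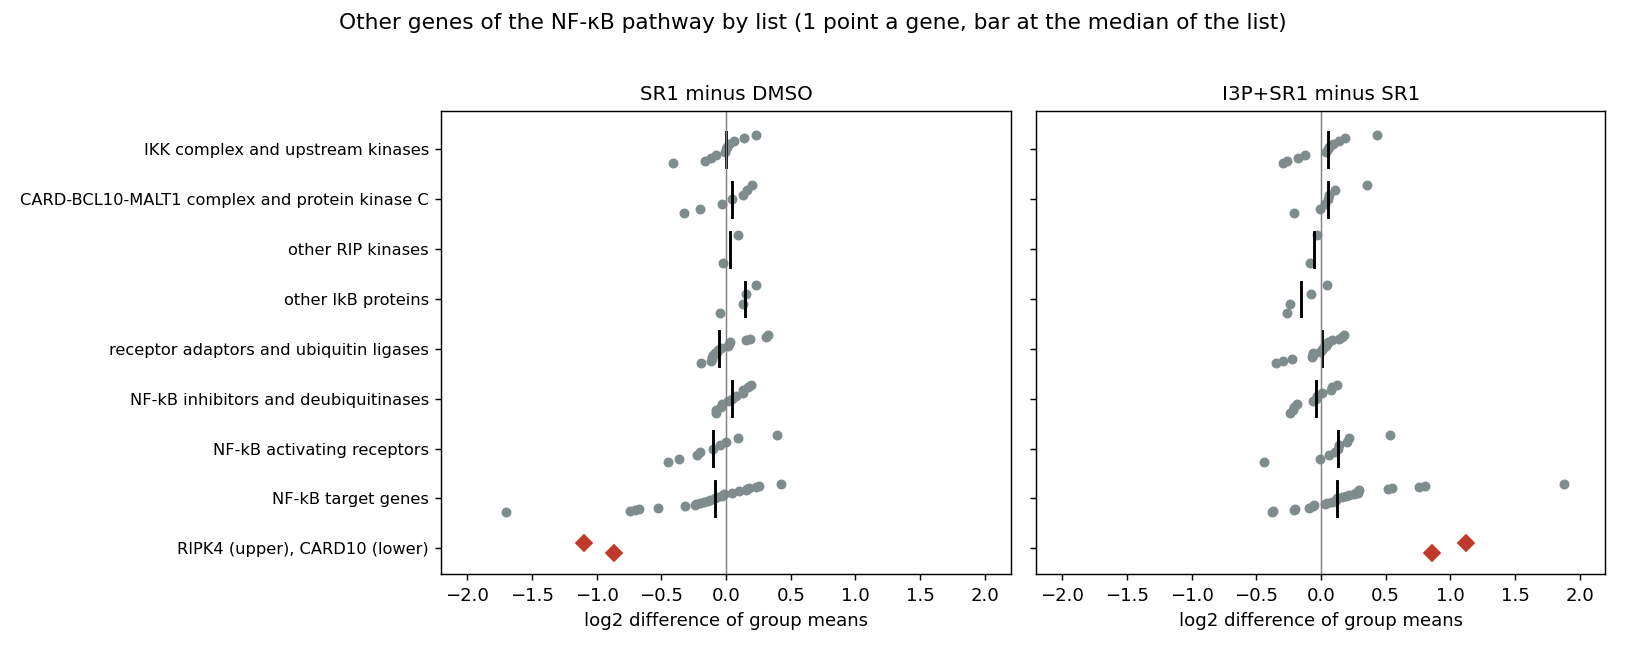
Log2 difference of group means (horizontal axis) in SR1 against DMSO and in I3P+SR1 against SR1 for the 85 other pathway genes by list (1 point a gene, bar at the median of the list), with RIPK4 and CARD10 below them as diamonds. Most points lie near 0, and 1 target gene, IL1B, lies farther out (-1.70 and 1.88) than RIPK4 (-1.10 and 1.12).

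Since RIPK4 is best known from epidermis, epithelial genes were read beside it, and 9 of 14 were measured. Their mean level ranged from 7.85 to 8.03 over the arrays of I3P+SR1, 7.73 to 8.04 in I3P, 7.61 to 7.82 in SR1 and 7.62 to 7.93 in DMSO. KRT5, a keratin gene, had the highest mean of the 9 over all arrays, 10.01, and the others averaged between 6.99 and 8.04. None passed: GRHL1, an epithelial transcription factor gene, differed by -0.69 in SR1 against DMSO and 0.51 in I3P+SR1 against SR1, and SFN by -0.17 and 0.10. The part of epithelial genes in the difference of RIPK4 was not tested.

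Of the markers of the line, FN1, VIM, TNC and CD44 were high, with means of 13.15, 12.82, 12.69 and 10.04, and GFAP, the astrocyte marker, averaged 7.92 and NES 7.54. CD44 was thus level with the epithelial gene KRT5 (10.01). The neuronal markers RBFOX3, SYP, SNAP25 and SYT1 averaged 8.27, 8.22, 8.89 and 7.85, and SNAP25 lay above GFAP and NES. The endothelial markers VWF and TEK averaged 8.12 and 6.91. The blood-cell markers PTPRC and CD3E averaged 7.20 and 7.73. Mean levels of the 2 measured blood-cell markers were 7.15 to 7.58 in I3P+SR1, 7.28 to 7.70 in I3P, 7.42 to 7.73 in SR1 and 7.25 to 7.63 in DMSO. No marker of the glial, blood-cell, endothelial or neuronal lists passed in SR1 against DMSO or in I3P+SR1 against SR1.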

How the data were processed

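Total RNA of U-87MG cells was measured on 16 single-colour arrays, 4 a group. Per the labels' protocols, the Affymetrix WT PLUS kit labelled 100 ng of RNA. The deposited table holds log2 expression, and oligo and RMA were used per the submitters' processing notes, which name no version. RMA corrects background, quantile normalizes and summarizes probes, on the assumption that few genes change, and it compresses dim genes. The sources used here give no build, annotation or filter of the table. No detection calls were used, so signal over background was not assessed. The number of arrays limits the precision. The arrays had medians of 8.26 to 8.30 and values of 2.13 to 13.8, and no 2 arrays were duplicates (smallest root mean square difference 0.258).

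Of 16510 entries of the table, 14096 had 1 symbol in the platform annotation, 795 had several and 1619 were not listed. Where a gene had several entries the one with the highest mean was kept, which left 14040 genes. The fit of all 16 arrays used limma 3.58.1 under R 4.3.3, with lmFit, then eBayes, a mean per group and no block. It gave log2 differences, standard errors and two-sided p-values, and adjusted p is that p corrected by Benjamini-Hochberg for 14040 genes, with 0.05 as the threshold for passing. The interaction is the response to I3P with SR1 minus that without it. The method was tested on simulated data. The labels do not say whether replicates came from separate cultures beyond calling them biological, so the p-values measure the spread between these arrays.

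The members and the lists were chosen with earlier results of these data known. All 10 genes are named in every comparison. From each list, genes that passed are named, and otherwise the 2 with the smallest unadjusted p in SR1 against DMSO. BCL10, MALT1, IL1A and the targets named by replicate share were added after their values were seen. The 5 most similar genes were taken by Pearson r over the 16 arrays. Same-numbered arrays deviated together from their group means in SR1 against DMSO (correlations over genes of 0.30 to 0.52). The same held in I3P+SR1 against SR1, at 0.37 to 0.65. It also held in I3P+SR1 against DMSO, at 0.22 to 0.52, so that all were above 0.1. The numbers were taken as pairing the arrays there by this check alone. Correlations in I3P against DMSO (-0.07 to 0.51) and I3P+SR1 against I3P (-0.09 to 0.55) were not all above 0.1. The titles give same-numbered arrays of all groups a shared code, the I3P arrays included. The labels do not explain that code, and it was not used to decide on pairing. Promoter windows are RefSeq's for GRCh38.p14.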

Additional observations from a re-analysis of the deposited data

Results flagged for a closer look

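REL, the gene of the subunit c-Rel, had a single array far from the others of its group in I3P+SR1. Replicate 4 stood at 8.39, against 7.93 to 7.98 for the other 3 arrays, and the gap made up 0.895 of the range of the group, above Dixon's 95% critical value for 4 arrays. Of 40 combinations of a gene and a group examined, 1 exceeded that value, and chance gives about 1 in 20. Replicate 4 was also the highest array of REL in I3P and in DMSO, and not in SR1.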

How the results depend on the processing

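Under 25 alternatives, 1484 member values were recomputed: 1301 kept their direction and their side of the threshold, 24 lost a call, 1 gained one, 158 values that had not passed turned sign, and 0 of the calls turned sign. In SR1 against DMSO 2 of the 10 genes passed. The count was 0 within SLI, 0 within SMI, 0 with only the groups compared in the fit and 1 without the dimmest 20% of genes, which leaves RIPK4 untested; fewer arrays or genes entered each. In I3P+SR1 against SR1, where 2 passed, it was 0 within SLI, 0 within SMI, 1 with only the groups compared and 1 without the dimmest 20% of genes. Leaving out each array in turn gave 1 to 2 in both comparisons and 0 in the other 4. With the replicate block as a paired fit, 2 passed in SR1 against DMSO and 3 in I3P+SR1 against SR1, where BCL3 was added, and it changed no other call of the 10 genes. Over all genes the calls numbered 23 and 16 in these comparisons, against 45 and 45 with the replicate block, 39 and 20 with array weights, 25 and 27 with the title prefix as a block, 27 and 24 with a prior variance that follows the level, 6 and 7 with only the groups compared, 4 and 1 within SLI, and 1 and 1 within SMI. Leaving out an array gave 9 to 25 and 10 to 18. I3P replicate 1, with an array weight of 0.242, changed no call of the 10 genes when left out. The dim level of RIPK4 with SR1 and the lack of detection calls limit how far the size of its difference can be read.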
